A study of Gallus gallus with 6 samples.

Results

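Expression in cells that received MEK1ca and HOXB8 together was set against expression in cells that received the control vector pCIG. This contrast uses 4 of the 6 libraries analysed here, and 13582 of the 17108 genes in the count table had enough counts to be tested. RNA-Seq was made from GFP-positive cells of the chicken embryo trunk neural tube, electroporated in ovo on both sides and sorted 18 h later, with the embryos of a condition pooled. MEK1ca + HOXB8 embryos received pCIG-MEK1ca and pCIG-HOXB8 at 1 µg/µL each, and control embryos received empty pCIG at 2 µg/µL. All these plasmids carry the same GFP, so that sorting does not select for cells that hold both factors. The study describes joint uptake of 2 plasmids in this tissue as nearly total. It assumed that every GFP-positive cell of this condition expresses both, and cells with both factors are meant here in that sense. MEK1ca alone (pCIG-MEK1ca at 1 µg/µL with pCIG at 1 µg/µL) was the third condition, and its values are given beside those of the contrast where they help to place a gene. Each condition had 2 libraries. The embryos were electroporated at E2, after 2 days of incubation (stage HH11 in the labels), and the strain is not given in the sources used here. The HOXB8 alone condition was not analysed here.

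MEK1 is the kinase that phosphorylates and activates ERK, the last step of the cascade that runs from growth factor receptors through RAS and RAF to the nucleus, and MEK1ca is a constitutively active form that no longer waits for the receptor. In the caudal embryo this pathway, driven by FGF, keeps progenitors immature. HOXB8 is a homeodomain transcription factor of the HOX clusters, whose members mark position along the rostro-caudal axis, and the trunk neural tube is the epithelium of progenitors that gives rise to the spinal cord. The study asked how HOXB8 changes the response of this tissue to overactive ERK signaling. The contrast described here is the net difference of the cells with both factors from control cells. It holds the effects of MEK1ca, of HOXB8 and of their combination, which it does not separate.

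Total counts were 90460770 and 84415529 in the MEK1ca + HOXB8 libraries, against 77004159 and 79064166 in the pCIG libraries. At these depths, a gene at 1 CPM (a count scaled to its library's total) rests on 77 counts or more. The 2 libraries of a condition are called independent RNA samples by the study, and each comes from 1 pool of embryos, so that p-values measure the spread between these pools. The pCIG and MEK1ca results had been published earlier by the same authors, and whether the MEK1ca + HOXB8 libraries were made with them is not stated, so that a batch of library preparation and the condition cannot be told apart. Genes are identified in the table by Ensembl identifiers without symbols, and none of these was found in the table of gene names at hand. Neither HOXB8, MAP2K1 (the gene of MEK1) nor markers of neural progenitors, neurons or other cell types were therefore looked up, and the labelled tissue was not checked against its markers. Values are means over all sorted cells, and dying cells had been excluded with a dye during sorting. The study counted more apoptotic cells in MEK1ca + HOXB8 embryos than in MEK1ca or pCIG embryos a day after electroporation. In these means, fewer cells of a type, cells lost by death and less RNA per cell cannot be told apart.

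At an adjusted p of 0.01 or less, 2011 genes were deregulated, 14.8% of the genes tested (edgeR's quasi-likelihood test on all 6 libraries, Benjamini-Hochberg adjustment). Expression was higher in MEK1ca + HOXB8 for 1210 genes (8.91%) and lower for 801 genes (5.9%). In each of these 2011 genes both MEK1ca + HOXB8 libraries lay on the same side of both pCIG libraries, which was also the case for 66.1% of all genes tested. A fit without 1 library of this contrast has 1 library left in that condition. Lost replication and dependence on that library can then not be told apart. The number of calls was lower in each such fit. It was 983 and 1231 without MEK1ca + HOXB8 replicate 1 or 2, and 786 and 674 without pCIG replicate 1 or 2. None of the 2011 genes was called in the opposite direction in any of these fits. As their libraries do not overlap between conditions, leaving 1 out could hardly turn the direction, so that no stability is read from this. Scaled by library size alone in place of TMM, 1436 genes rose and 497 fell (74.3% upwards rather than 60.2%), as the median over all genes moved to a log2 fold change of 0.10 rather than 0.02.

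Rises and falls differed in size. The median log2 fold change was 1.45 for the 1210 upregulated genes (interquartile range 0.82 to 2.64), -0.60 for the 801 downregulated genes (interquartile range -0.87 to -0.46) and 0.02 over all genes tested. At least 2-fold changes made up 66.0% of the rises (799 genes) and 16.7% of the falls (134 genes). Of the rises, 422 were at least 4-fold, 254 at least 8-fold and 145 at least 16-fold, the last number with genes lacking a pCIG count set at their lower bound. Of the falls, 6 were at least 4-fold and 1 at least 8-fold. Large differences from control were thus mostly rises. In every alternative fit, at least 2-fold rises outnumbered at least 2-fold falls, with 378 to 1214 against 69 to 196 genes.

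**Figure D1:**
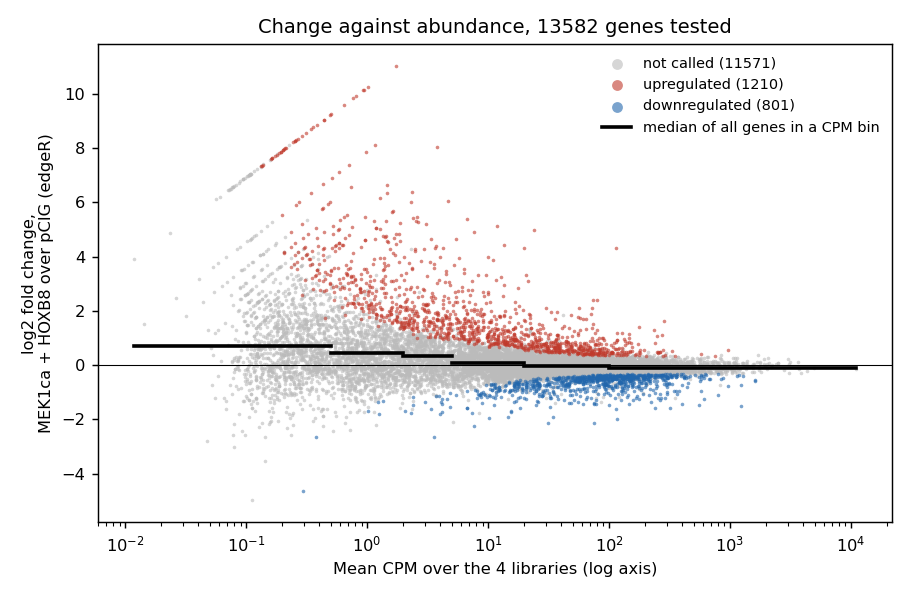
Log2 fold change of MEK1ca + HOXB8 over pCIG (edgeR) against the mean CPM over these 4 libraries on a log axis, with 1 point for each of the 13582 genes tested, upregulated genes in red, downregulated genes in blue, other genes in grey and black bars for the median of all genes in each CPM bin. Rises reach farther than falls and lie mostly at low CPM, while most falls are under 2-fold and lie at high CPM, and the diagonal row at the upper left holds genes without a pCIG count, whose fitted fold depends on the prior count.

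The direction of change went with abundance, as the plot of fold change against CPM shows. Among the 1507 genes with a mean of 0.5 to 2 CPM over the 4 libraries, 233 rose (15.5%) and 4 fell (0.265%). Among the 1103 genes at 2 to 5 CPM, 203 rose (18.4%) and 17 fell (1.54%). Among the 2610 genes at 100 CPM or more, 75 rose (2.87%) and 349 fell (13.4%). In the rarest bin, under 0.5 CPM, 93 of 1461 genes rose (6.37%) and 2 fell (0.137%). At 5 to 20 CPM, 297 of 2353 genes rose (12.6%), and at 20 to 100 CPM, 309 of 4548 (6.79%). Rises were thus more frequent than the overall 8.91% at 0.5 to 20 CPM and less frequent under 0.5 CPM and at 20 CPM or more. Falls were most frequent at 100 CPM or more. The size of called changes went with abundance too. In this top bin, the median log2 fold change was 0.53 for rises and -0.48 for falls. Here at least 2-fold falls outnumbered such rises, 33 to 10. At 20 to 100 CPM, the medians were 0.69 and -0.61, with 66 rises and 44 falls of at least 2-fold. At 5 to 20 CPM, they were 1.23 and -0.91, with 199 and 34. In every bin the median rise was larger than the median fall, but the gap was small at 20 CPM and above.

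The genes as a whole were tilted with abundance as well. Over all genes tested, the median log2 fold change was 0.72 under 0.5 CPM, 0.44 at 0.5 to 2 CPM, 0.35 at 2 to 5 CPM, 0.10 at 5 to 20 CPM, -0.04 at 20 to 100 CPM and -0.11 at 100 CPM or more. For the genes that were not called, it was 0.61 under 0.5 CPM and -0.08 at 100 CPM or more. Taken library by library, each of the 4 pairs of a MEK1ca + HOXB8 and a pCIG library gave a median between 0.64 and 0.81 under 0.5 CPM and between -0.14 and -0.08 at 100 CPM or more. Between replicates, these medians were -0.09 and 0.01 for MEK1ca + HOXB8 replicate 1 over 2, and 0.01 and -0.04 for pCIG replicate 1 over 2. The difference between conditions was larger than that between replicates in both bins. The MEK1ca + HOXB8 libraries had more counts, and they also had counts in more genes, 14635 and 14693 against 14054 and 14084 in pCIG (14095 and 14061 in MEK1ca). At the depth of the smallest of the 6 libraries, 14551 and 14630 genes would be expected to hold a count in MEK1ca + HOXB8, against 14019 and 14032 in pCIG. The part of amplification or library preparation in this tilt was not tested. Scaled by library size alone, the medians were 0.81 under 0.5 CPM, 0.04 at 20 to 100 CPM and -0.02 at 100 CPM or more. Loess offsets are fitted to take the tilt out. With them, the medians were -0.20 under 0.5 CPM, -0.06 at 0.5 to 2 CPM and 0.01 at 100 CPM or more. The median of the rarest genes thus changed sign. In this fit, 962 genes rose and 559 fell, of which 501 and 170 by at least 2-fold. Under 0.5 CPM, 16 rose and 5 fell, and at 0.5 to 2 CPM, 110 rose and 24 fell. At 100 CPM or more, 161 rose and 163 fell. The excess of rises thus kept its direction in both of these rare bins. The excess of falls at 100 CPM or more was lost, but the offsets centre this bin, so that no conclusion is drawn from the loss.

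Upregulated genes were mostly lowly expressed in control cells. In TPM, which scales counts to the exonic length of a gene as well as to the library, their median level was 8.24 and 8.47 in the MEK1ca + HOXB8 libraries, against 2.65 and 2.40 TPM in pCIG. Downregulated genes started from a high level and stayed well expressed, with a median of 42.8 and 45.9 TPM in MEK1ca + HOXB8, against 67.6 and 64.4 TPM in pCIG. All genes tested had medians of 19.7 and 21.3 TPM, against 20.8 and 19.2 TPM. In MEK1ca alone, the same upregulated genes had medians of 3.94 and 4.10 TPM and the same downregulated genes 57.0 and 59.1 TPM. For both sets the MEK1ca medians lay between those of MEK1ca + HOXB8 and those of pCIG. The genes were chosen by the contrast of the outer conditions, so that this place in between is a description. With loess offsets, the median over the 4 libraries was 19.9 CPM rather than 7.13 CPM for upregulated genes and 48.1 CPM rather than 86.4 CPM for downregulated genes.

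As a share of all transcripts, the changes were modest. Upregulated genes held 3.51% and 3.57% of TPM in MEK1ca + HOXB8, against 1.98% and 1.93% in pCIG. Downregulated genes held 5.71% and 6.19%, against 8.83% and 8.67%. The most abundant transcripts had small fold changes. Of the 100 genes with the highest TPM in pCIG, 0 passed the threshold upwards and 2 downwards in edgeR, beside 8.91% and 5.9% of all genes, with log2 fold changes between -0.74 and 0.38 over the 100 genes. At an unadjusted p under 0.05 these were 8 and 16 genes, beside 22.1% and 18.7% of all genes tested. With DESeq2 at an adjusted p of 0.01 they were 1 and 5. DESeq2 called 1667 genes upwards and 1395 downwards in all, more than edgeR, so that 8.91% and 5.9% are not its shares.

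Some genes were close to silent in control cells. Of the 371 genes tested with less than 0.1 CPM in both pCIG libraries, 120 were upregulated. Such genes reached the test only because other libraries held more counts, so that this number cannot be read against 8.91%. Expression stayed low in most of them, from 0.264 to 7.59 CPM in MEK1ca + HOXB8 with a median of 0.741 CPM. A mean of 1 CPM was reached by 42 genes and a mean of 5 CPM by 1 gene. In 71 of the 120 genes, both MEK1ca libraries were under 0.1 CPM as well. Conversely, of 52 genes tested with less than 0.1 CPM in both MEK1ca + HOXB8 libraries, 1 was downregulated.

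Among the 120 genes, 37 had no count in either pCIG library. Against a floor of 3 counts over both pCIG libraries (0.0192 CPM), they were at least 13.7-fold to at least 179-fold higher in MEK1ca + HOXB8, with a median bound of 26.2-fold. These bounds allow for counting error in pCIG only, as the MEK1ca + HOXB8 counts enter as observed. All intervals on counts given here cover counting error only.

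The strongest rises were ranked among the 790 upregulated genes with a mean of at least 5 CPM in MEK1ca + HOXB8, and the strongest falls among the 789 downregulated genes with a mean of at least 5 CPM in pCIG. The ranking also required that libraries of these conditions do not overlap, so that this separation is given by the choice of genes. ENSGALG00000000544 ranked first among the rises. It is annotated on chromosome 26 (galGal4 build, plus strand, 1553858 to 1557199), has 837 exon bases in 7 segments and is free of overlap with other genes. Expression was 6.83 and 8.35 CPM in the MEK1ca + HOXB8 libraries (618 and 705 counts), against 0.0390 and 0.0126 CPM in the pCIG libraries (3 and 1 counts). It was thus nearly absent from control cells and clearly present with both factors. MEK1ca alone had 1.60 and 1.56 CPM, between the other conditions. The log2 fold change against pCIG was 8.04 (standard error 0.43, adjusted p = 5.08e-06 from edgeR). Its size rests on the 4 pCIG counts, with a ratio of pooled CPM of 295 and an exact 95% interval of 115 to 1085. In the alternative fits the log2 fold change lay between 7.47 and 8.96 and the adjusted p did not exceed 1.47e-04.

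The largest rise in absolute terms was that of ENSGALG00000002286, on the plus strand of chromosome 18 from 4681029 to 4683567 (4 exon segments, 1902 exon bases). It had 1239.9 and 1126 CPM in MEK1ca + HOXB8, against 720.4 and 796 CPM in pCIG. Both libraries with both factors were higher than both control libraries, by a margin larger than the spread between replicates. In edgeR, the log2 fold change was 0.56 at an adjusted p of 0.00129 (standard error 0.09). The call was lost without pCIG replicate 1 (log2 fold change 0.47, adjusted p = 0.0235), and the smallest adjusted p of any alternative was 6.65e-06. MEK1ca alone had 689 and 780.2 CPM, within the range of the pCIG libraries or just under it. Per length, its level was 1188 TPM on average in MEK1ca + HOXB8 and 782 TPM in pCIG, which put it at rank 108 and at rank 176 of all genes.

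ENSGALG00000027633 ranked first among the falls. It lies on the minus strand of chromosome 1 from 42006975 to 42038172, with 5893 exon bases in 2 segments over a span of 31198 bases. Expression fell to 1.16 and 0.888 CPM in MEK1ca + HOXB8, against 6.34 and 5.86 CPM in pCIG. The conditions were well apart, and the low level with both factors was not zero. In edgeR, the log2 fold change was -2.65 at an adjusted p of 8.39e-05 (standard error 0.27). Over the alternatives it lay between -2.96 and -2.48, with an adjusted p of at most 0.00171. MEK1ca alone had 1.89 and 2.39 CPM, closer to MEK1ca + HOXB8 than to pCIG.

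The largest fall in absolute terms was that of ENSGALG00000004361, on the plus strand of chromosome 10 from 7329784 to 7416677 (20 exon segments, 9297 exon bases). It had 618 and 726 CPM in MEK1ca + HOXB8, against 2031 and 1540.1 CPM in pCIG. Both libraries with both factors were under both control libraries, although the control libraries themselves differed. The log2 fold change was -1.49 (standard error 0.14, adjusted p = 1.46e-04 from edgeR). The call was lost without MEK1ca + HOXB8 replicate 1 (log2 fold change -1.39, adjusted p = 0.0219) or replicate 2 (log2 fold change -1.62, adjusted p = 0.0151), and the smallest adjusted p of any alternative was 1.64e-22. MEK1ca alone had 1670.1 and 1418 CPM, close to pCIG. The gene held 138 TPM on average in MEK1ca + HOXB8 and 377 TPM in pCIG.

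**Figure D2:**
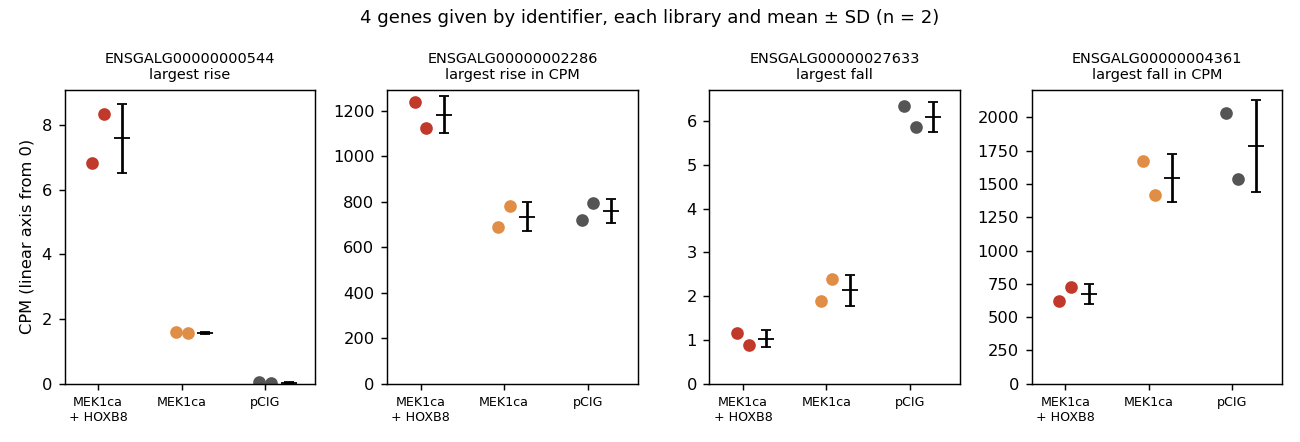
CPM of the 4 genes given by identifier, on linear axes from 0, with a dot for each library and a bar for the mean ± SD of the 2 libraries of a condition. MEK1ca + HOXB8 stands apart from pCIG in each gene, as the choice of genes required. MEK1ca alone lies near pCIG for ENSGALG00000002286 and ENSGALG00000004361, nearer to MEK1ca + HOXB8 for ENSGALG00000027633 and in between for ENSGALG00000000544.

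The 20 strongest rises were genes of low expression in control cells, where the ranking required no minimum level. Their log2 fold changes were 3.996 to 8.04, with adjusted p of at most 0.00712 from edgeR. Mean levels were 5.10 to 219 CPM in MEK1ca + HOXB8 (median 8.63 CPM), against 0.0258 to 10.3 CPM in pCIG (median 0.357 CPM). In 15 of the 20 genes, pCIG had less than 1 CPM on average. MEK1ca alone had a median of 0.842 CPM over these genes. In 16 genes both MEK1ca libraries were lower than both MEK1ca + HOXB8 libraries, and in 4 both were higher. Examples of both cases follow, given by rank and position since no symbol was at hand.

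Rank 15 was the most abundant of the 20 with both factors. It lies on chromosome 9 from 13417660 to 13427011 and had 263.5 and 175 CPM in MEK1ca + HOXB8, against 10.6 and 10.04 CPM in pCIG. In MEK1ca alone it was higher still, with 329.1 and 380.1 CPM. Rank 12, on chromosome 8 from 5564250 to 5580305, had 24.4 and 27.8 CPM in MEK1ca + HOXB8, against 1.12 and 1.14 CPM in pCIG. It had 31.9 and 28.4 CPM in MEK1ca alone. At rank 2, a gene on chromosome 24 from 6119941 to 6122966, had 6.82 and 11.5 CPM with both factors, against 0.208 and 0.0506 CPM in pCIG and beside 13.2 and 20.3 CPM in MEK1ca. In these genes, as in the gene at rank 19, the high level was present in MEK1ca alone.

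In other genes of the 20, MEK1ca alone was close to control. Rank 8, on the minus strand of chromosome 5 from 16916859 to 16927489, had 48.5 and 44.3 CPM in MEK1ca + HOXB8, against 1.86 and 0.936 CPM in pCIG. It had 0.660 and 0.416 CPM in MEK1ca. A second gene of the same strand lies close by, from 16862037 to 16868089, at rank 16. It had 45.5 and 30.5 CPM with both factors, against 2.42 and 1.20 CPM in pCIG, and 2.25 and 2.75 CPM in MEK1ca. At rank 7, a gene on chromosome 7 from 22032622 to 22037892, had 22.6 and 24.0 CPM in MEK1ca + HOXB8, against 0.818 and 0.430 CPM in pCIG and beside 0.864 and 0.701 CPM in MEK1ca. Likewise the gene at rank 3, on chromosome 28 from 899423 to 901661, had 5.20 and 5.00 CPM with both factors, against 0.104 and 0.114 CPM in pCIG, and 0.0943 and 0.104 CPM in MEK1ca. In each of these genes both libraries with both factors were far above the other 4.

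The 20 strongest falls were smaller in fold. Their levels in pCIG were higher than those of the rises, which the required minimum of 5 CPM in pCIG favours. Their log2 fold changes were -2.65 to -1.56, with adjusted p of at most 0.00305 from edgeR. Mean levels were 1.02 to 167 CPM in MEK1ca + HOXB8 (median 7.04 CPM), against 5.02 to 475 CPM in pCIG (median 23.0 CPM). In 5 of these genes pCIG had 100 CPM or more. None was silenced. In 15 of the 20 genes both MEK1ca libraries were above both MEK1ca + HOXB8 libraries, and in 11 they lay between MEK1ca + HOXB8 and pCIG. The median in MEK1ca alone was 9.33 CPM.

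Rank 16 of the falls was the most abundant of them in control cells. It lies on chromosome 21 from 6300381 to 6312118 and fell to 166.8 and 166.8 CPM in MEK1ca + HOXB8, against 450.3 and 498.7 CPM in pCIG. It had 148 and 232.2 CPM in MEK1ca, a range that includes both values with both factors. Rank 5, on chromosome Z from 11029529 to 11093852, had 40.6 and 58.1 CPM in MEK1ca + HOXB8, against 195.9 and 168.7 CPM in pCIG. MEK1ca alone, with 91.8 and 133.6 CPM, lay in between. At rank 4, a gene on chromosome 7 from 14582883 to 14641810, had 12.6 and 12.2 CPM with both factors, against 51.5 and 49.7 CPM in pCIG, and 21.7 and 25.0 CPM in MEK1ca. Its replicates were close, and its adjusted p of 5.08e-06 (edgeR) was the smallest of the 20, shared with the gene at rank 14. At rank 14, a gene on chromosome 1 from 28525499 to 28668231, had 55.1 and 60.6 CPM in MEK1ca + HOXB8, against 180.8 and 157.6 CPM in pCIG, and 90.5 and 95.2 CPM in MEK1ca.

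By contrast, the gene at rank 7 of the falls, on chromosome Z from 15930691 to 15938408, had 12.9 and 17.6 CPM in MEK1ca + HOXB8, against 59.1 and 47.9 CPM in pCIG. It had 45.5 and 54.9 CPM in MEK1ca, which overlaps control. Rank 3, on chromosome 9 from 4942248 to 4948675, fell to 27.8 and 31.0 CPM with both factors, against 122.9 and 118.2 CPM in pCIG, and had 32.2 and 60.4 CPM in MEK1ca. It overlaps another gene of the same strand, as does the gene at rank 2, and their reads may be shared with these neighbours. None of the 20 strongest rises overlaps another gene.

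**Figure D3:**
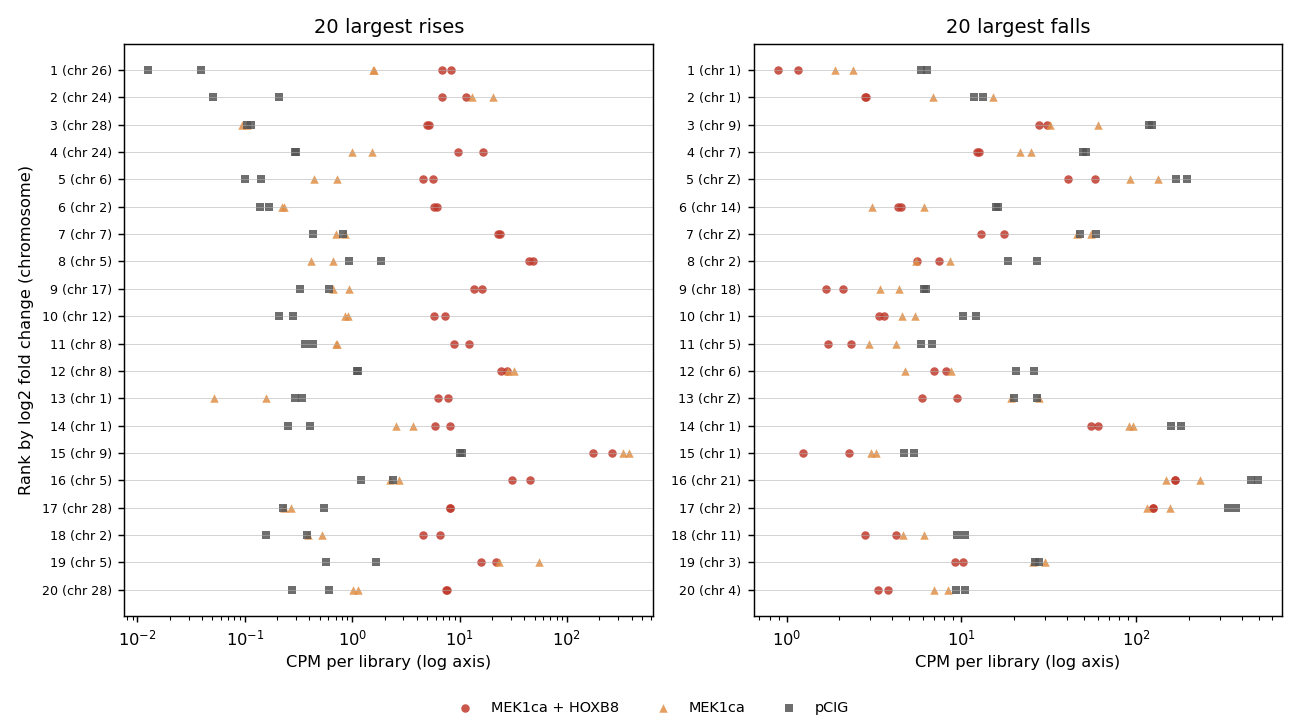
CPM per library on a log axis for the 20 strongest rises (left) and the 20 strongest falls (right) among genes with a mean of at least 5 CPM in the higher condition, ordered by log2 fold change with the chromosome beside the rank. The circles of MEK1ca + HOXB8 and the squares of pCIG do not overlap in any row, as the ranking required. The triangles of MEK1ca lie with or beyond the circles in 4 of the rises and below them in 16.

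Calls were found on every chromosome with at least 50 genes tested. Chromosomes 1 to 5, the largest, had 511 upregulated (8.44%) and 382 downregulated genes (6.31%) of 6053 tested. On chromosomes 6 to 10 these were 218 (9.58%) and 152 (6.68%) of 2275. On the small chromosomes 11 to 28 they were 447 (9.75%) and 224 (4.89%) of 4584. The sex chromosome Z had 34 upregulated (5.14%) and 43 downregulated genes (6.50%) of 662. The shares of the 3 groups of autosomes were close to the 8.91% and 5.9% of all genes, and Z had fewer rises than any of them.

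Z genes were about as abundant as others, with a median of 20.5 CPM against 23.8 CPM for all genes tested. In each bin between 0.5 and 100 CPM, a smaller share of Z genes than of genes on chromosomes 1 to 5 rose. At 20 to 100 CPM the shares were 2.70% on Z, 7.07% on chromosomes 1 to 5 and 7.48% on chromosomes 11 to 28. At 5 to 20 CPM they were 6.77%, 11.5% and 13.8%. The numbers behind them are small, with 34 rises in all on Z. The median log2 fold change of Z genes was -0.04, against 0.00 on chromosomes 1 to 5 and 0.05 on chromosomes 11 to 28. Z is carried by males in 2 copies and W by females only, and the sex of the pooled embryos is not given in the sources used here. Z genes held 3.54% and 3.99% of counts in MEK1ca + HOXB8, against 3.91% and 3.75% in pCIG. The 8 W genes tested summed to 124.7 and 58.1 CPM, against 86.1 and 106.4 CPM. The conditions overlapped in both sums, 0 of the W genes passed the threshold (edgeR, lowest adjusted p 0.214, 0 genes at an unadjusted p under 0.05 and 0 with DESeq2), and the part of the embryos' sex in the share on Z was not tested.

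Among single chromosomes, the share of upregulated genes was highest on chromosomes 25 (13.6%), 26 (13.5%) and 24 (12.9%) and lowest on Z and on chromosome 15 (5.22%). The share of downregulated genes was highest on chromosomes 7 (9.07%) and 26 (8.07%) and lowest on chromosomes 27 (1.38%) and 28 (2.45%). Several of these shares rest on few genes, and their 95% intervals cover counting error only. The interval for rises included the overall 8.91% on chromosomes 25 (8.86% to 20.2%) and 24 (8.58% to 18.9%). It did not on chromosome 26 (9.59% to 18.6%). The interval for the 18 falls on chromosome 26 (5.17% to 12.4%) included the overall 5.9%. Chromosome 28 had 31 rises (12.7%, 9.06% to 17.4%) and 6 falls (1.13% to 5.24%), with both intervals off the overall shares. The chromosomes named are extremes picked from many, so that their shares are a description. The 20 strongest rises came from 12 chromosomes, with 8 genes on chromosomes 11 to 28, 7 on chromosomes 1 to 5, 5 on chromosomes 6 to 10 and none on Z. The 20 strongest falls came from 13 chromosomes, with 10 genes on chromosomes 1 to 5 and 3 on Z. The 37 mitochondrial genes and the 1192 genes on unplaced sequences held no count in any library and were not tested.

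**Figure D4:**
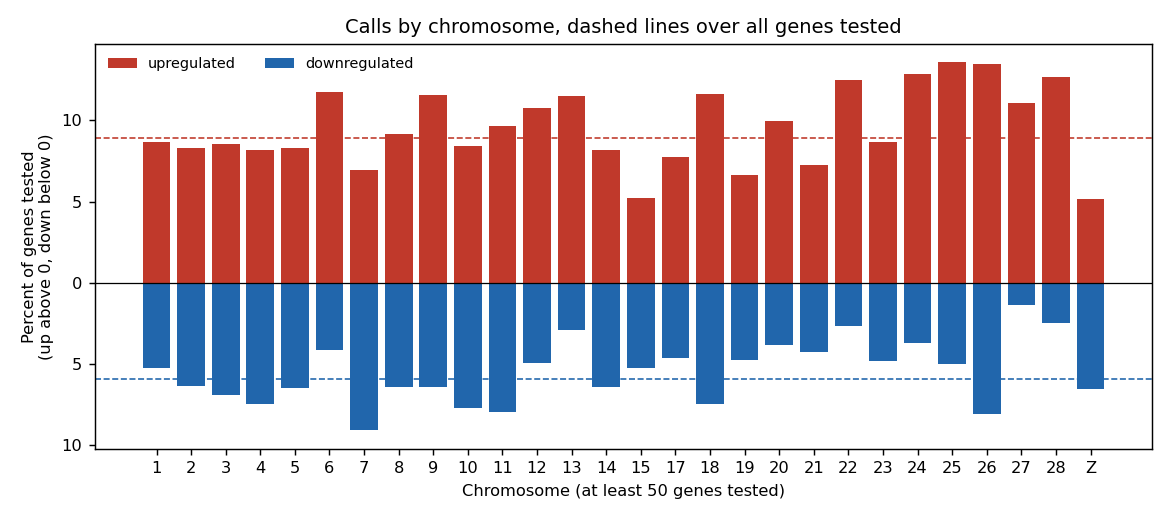
Percent of the genes tested that were upregulated (red, above 0) and downregulated (blue, below 0) in MEK1ca + HOXB8 against pCIG, for each chromosome with at least 50 genes tested, with dashed lines at the share over all genes tested (8.91% and 5.9%). Rises are most frequent on some small chromosomes (13.6% on chromosome 25, 19 of 140 genes) and least frequent on Z (5.14%), and falls are rare on chromosome 27 (1.38%).

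Called genes had a next gene with the same call more often than the share over all genes, although most did not. Of 1206 upregulated genes with a further tested gene on their chromosome, the next one was upregulated in 196 (16.3%), beside 8.91% of all genes. For downregulated genes this was 99 of 800 (12.4%), beside 5.9%. Without neighbours whose annotations overlap, and which may share reads, the shares were 16.2% (190 of 1170) and 12.9% (98 of 759). In 44 pairs of upregulated neighbours both genes rose at least 4-fold, as did 422 upregulated genes in all. Only 6 downregulated genes fell that much, too few for the absence of such pairs among falls to be informative.

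Runs of at least 4 consecutive tested genes with the same call were looked for after these shares had been seen. Runs of rises lay on chromosomes 2, 5, 9, 15, 24 and 26, and runs of falls on chromosomes 3, 10 and 14. Those on chromosomes 26, 9, 5 and 3 are described here. In the run on chromosome 2 the annotations overlap other genes. How many runs the shares of calls alone would give was not tested. The run around ENSGALG00000000544 on chromosome 26 (1543127 to 1587475) had 5 upregulated genes of the plus strand. The gene just before it, from 1545390 to 1549195, had 3.71 and 5.70 CPM in MEK1ca + HOXB8, against 0.0779 and 0.126 CPM in pCIG, and 1.76 and 1.38 CPM in MEK1ca. The first of the run, from 1543127 to 1545030, had 24.6 and 36.9 CPM, against 7.71 and 10.3 CPM in pCIG. The run thus holds genes from near silence to moderate expression. A further run of 5 on chromosome 9 (15117606 to 15170586) was at 1.28 to 2.89 CPM in MEK1ca + HOXB8 on average, against 0 to 0.378 CPM in pCIG. In MEK1ca alone, no member exceeded 0.545 CPM in either library. On chromosome 5, 4 long genes of 47 to 70 exon segments rose together between 14079795 and 14459159, by log2 fold changes of 1.81 to 4.002. One of them is the gene at rank 19 of the rises, which had 16.0 and 21.8 CPM in MEK1ca + HOXB8, against 1.66 and 0.569 CPM in pCIG, and 55.0 and 23.5 CPM in MEK1ca. The longest run of falls, 8 genes on chromosome 3 between 47503537 and 48155972, had log2 fold changes of -1.70 to -0.34.

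Deregulated genes had longer exonic lengths than the genes tested as a whole. The median exonic length, the number of annotated exon bases of a gene, was 2456 bases in upregulated genes (interquartile range 1571 to 3878), 2914 bases in downregulated genes (1866 to 4263) and 2171 bases in all genes tested (1286 to 3582). Downregulated genes also stretched over more of the genome. The median span from start to end was 12556 bases in upregulated genes (4889 to 33852), 22280 bases in downregulated genes (10743 to 52881) and 13091 bases in all genes (4917 to 32826). They had a median of 11 exon segments, against 9 both in upregulated genes and in all genes.

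A longer transcript gives more counts at the same level, and longer genes had more counts here. The median CPM of all genes was 3.14 for exonic lengths under 1000 bases and 54.0 at 5000 bases or more. Across these classes, the share of rises went from 5.81% to 10.8% and that of falls from 1.59% to 8.43%. Within bins of CPM, the exonic length of upregulated genes stayed above that of all genes, with medians of 1965 against 1605 bases at 0.5 to 2 CPM, of 2599 against 1975 bases at 5 to 20 CPM and of 2892 against 2468 bases at 20 to 100 CPM. For downregulated genes the medians were 1884 bases at 5 to 20 CPM, 2614 bases at 20 to 100 CPM and 3451 bases at 100 CPM or more, where all genes had 2998 bases. At equal CPM, upregulated genes were thus longer in exons than all genes in each of the 6 bins, and downregulated genes were longer in 4 of them, of which those at 0.5 to 2 and at 2 to 5 CPM hold 4 and 17 downregulated genes.

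The long span of downregulated genes was also seen within bins. It was 23373 against 14534 bases for all genes at 5 to 20 CPM, 22263 against 15840.5 bases at 20 to 100 CPM and 22411 against 16862 bases at 100 CPM or more. Upregulated genes in these bins had spans of 17378, 17970 and 16099 bases, the last below that of all genes. By class of span, the share of falls was 2.41% under 5000 bases, 5.67% at 5000 to 20000 bases, 7.55% at 20000 to 50000 bases, 9.83% at 50000 to 100000 bases and 9.45% at 100000 bases or more. The share of rises lay between 8.19% and 9.02% in the classes under 100000 bases and was 11.3% at 100000 bases or more. Falls were thus more frequent among genes of 50000 bases or more than among shorter ones, and rises were most frequent at 100000 bases or more. The strongest changes had the same difference, with a median span of 45092.5 bases in the 20 strongest falls and 9596 bases in the 20 strongest rises. Of 816 genes of 1 exon segment, 37 were upregulated (4.53%) and 16 downregulated (1.96%), beside 8.91% and 5.9% of all genes. They were at a median of 0.943 CPM.

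**Figure D5:**
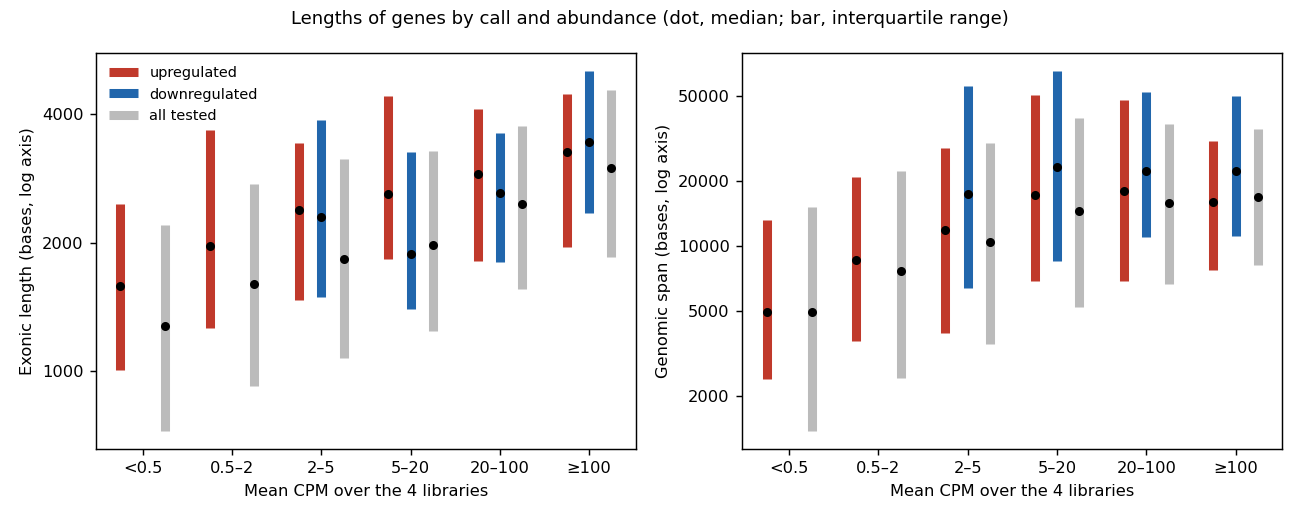
Exonic length (left) and genomic span (right) in bases on log axes for upregulated, downregulated and all genes tested, in bins of mean CPM over the 4 libraries, with a dot for the median and a bar for the interquartile range, drawn where a bin holds at least 10 genes. Upregulated genes have longer exonic lengths than all genes at each abundance, and downregulated genes have longer spans (22411 against 16862 bases at 100 CPM or more).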

How the data were processed

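Paired-end reads had been aligned by the authors with Subread (galGal4 build), and featureCounts had assigned them to Ensembl 85 genes. The deposited values are raw counts, listed beside each gene's exonic length and exon coordinates. Program versions, the strand setting and the handling of multiply aligned reads are not given in the sources used here. The deposited tables of the authors' own comparisons (fold changes and p-values, none of them for this contrast) were not used.

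Counts were analysed in R 4.3.3 with edgeR 4.0.16 and limma 3.58.1 (filterByExpr by condition, TMM, a mean for each of the 3 conditions fitted to all 6 libraries, robust quasi-likelihood F test, Benjamini-Hochberg adjustment over 13582 genes, threshold 0.01), with DESeq2 1.42.0 as an alternative, and in Python 3.11.15. The method was tested on simulated data with balanced rises and falls and no tilt with abundance, so that this test does not bear on the tilt seen here. Standard errors were taken as the absolute log2 fold change divided by the square root of F. CPM are counts scaled to library totals, and TPM take exonic length into account. The common biological coefficient of variation was 0.126. Expected numbers of genes with a count at equal depth were computed from the counts, a choice made after the values were seen. For 1 gene in 2 against 2 libraries, the smallest two-sided p of an exact permutation test is 0.333. Low counts in MEK1ca replicate 2 were nearly all even (99.4% of counts from 1 to 10, against 51.8% to 57.0% in the other libraries), and the reason is not known. This library bears on the shared estimate of spread.

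The contrast, the genes described and the lists were chosen with earlier results of these data known. Genes given by identifier are the largest rise and fall by log2 fold change and by difference in mean CPM, among genes past the threshold with at least 5 CPM in the higher condition and libraries that do not overlap. No identifier matched the RefSeq table of gene names (assembly GRCg7b), so that lists of genes by function and cell type were not tested. Neither genome nor sequences of galGal4 were at hand, and none are shown. Alternatives were other scalings, DESeq2, filters on low counts, the 4 libraries alone, a replicate term, other thresholds and each library left out.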

Additional observations from a re-analysis of the deposited data

How the results depend on the processing

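Of the comparison's counts, the 2011 deregulated genes were 3062 with DESeq2 in place of edgeR (1395 down), 3984 at an adjusted p of 0.05 (2234 up, 1750 down) and 933 with a log2 fold change of at least 1 (799 up, 134 down). With each library left out in turn (its partner is then assumed to vary like the other libraries), there were 674 to 2051 deregulated genes (435 to 1268 up, 239 to 783 down), the lowest without pCIG replicate 2. Without MEK1ca replicate 1 or 2 there were 2051 and 2036. Of the 2011 genes, 37.4% and 32.7% were also called when pCIG replicate 1 or 2 was left out, 45.2% and 51.7% when MEK1ca + HOXB8 replicate 1 or 2 was, and 67.1% with loess offsets. No alternative called any of them in the opposite direction. For the fits without a library and the other thresholds, this was all but fixed by the choice of genes and the shared fold changes.

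The share of rises among calls, 60.2%, was 74.3% with scaling by library size alone (497 genes down), 63.2% with loess offsets, 54.4% with DESeq2, 56.1% at an adjusted p of 0.05, 85.6% with the fold minimum and 48.2% to 67.9% with a library left out, under 50% only without MEK1ca + HOXB8 replicate 2. Over all genes tested, the median log2 fold change of 0.0177 was 0.103 by library size, 0.00940 with the size factors of DESeq2, -0.00115 with loess offsets, 0.0313 without a filter and 0.0101 to 0.0287 with a library left out. Scaling thus moves the balance of rises and falls, and the cause was not tested.

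The median level of upregulated genes, 7.13 CPM over the 4 libraries, was 10.5 CPM by library size and 19.9 CPM with loess offsets. That of downregulated genes, 86.4 CPM, was 48.1 CPM with loess offsets, 74.3 CPM with DESeq2 and 77.0 CPM at 0.05. The median exonic length was 2610.5 bases (up) and 2692 bases (down) with loess offsets, so that the difference between both nearly closed, and 2293 bases (up) at 0.05. Rises on Z were 3.63% with loess offsets, 7.26% with DESeq2 and 11.2% at 0.05, each below those on chromosomes 11 to 28 (8.20%, 13.2% and 18.2%, and 11.9% by library size). Falls on Z were 4.23% by library size, 12.3% with DESeq2 and 15.3% at 0.05, and on chromosomes 11 to 28 they were 3.12%, 8.09% and 10.6%, and 3.32% with loess offsets.

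With the replicate number as a block, 1916 genes were called (1170 up, 746 down). The labels do not say what the numbers share, and deviations of same-numbered libraries had a correlation of -0.113 across genes. With the pairing crossed, chosen after seeing this, 2771 genes were called (1529 up, 1242 down, 55.2% up).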
